A study of Mus musculus with 12 samples.

Results

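The genes described here are 6 immune genes of the mouse hippocampus: *Ccl12*, *Clec4n*, *Adora3*, *Naip6*, *Gbp4* and *Il4i1*. They were picked by name from the 284 genes of the hippocampal expression table with their values in Ctrl and treated mice already known, so their hippocampal differences are given as a description with no test. Of the 6 genes, 5 also have an entry in the blood table of 8003 genes, and *Ccl12* was not analysed in blood.

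RNA was sequenced from blood and hippocampus of 6 C57BL/6 mice labelled as 15 months old, 1 library per tissue and mouse, to ask which transcripts differ in aged mice given *Akkermansia muciniphila*, a mucus-degrading gut bacterium. The Ctrl group held mice 242, 243 and 247 (Ctrl 1, 2 and 3), labelled as normal. The treated group held mice 236, 260 and 272 (Akk 1, 2 and 3), labelled as given *A. muciniphila* membrane protein, for 8 weeks in 1 label and for 6 weeks in another. The study's methods instead describe antibiotic-pretreated mice gavaged with the bacterium, its pasteurized form or a vehicle as control. They also state of the animals sampled for RNA that the bacterium had not colonised their gut. What the Akk and the Ctrl mice received is thus not settled by these sources. Values are FPKM (fragments per kilobase of transcript, scaled to the mapped fragments of the library), which take transcript length into account and were rounded to 2 decimals. The read depth of each library is unknown, so no counting error can be attached to a value.

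Microglia are the resident macrophages of the brain, and with the macrophages of its borders they carry much of its innate immune sensing. A typical response links secreted chemokines, which draw in CCR2-bearing monocytes, with surface and cytosolic receptors for microbial products and with interferon-induced effector proteins. *Ccl12* encodes a chemokine ligand of CCR2. *Clec4n* encodes Dectin-2, a C-type lectin that binds fungal mannans, and *Adora3* encodes the adenosine A3 receptor. *Naip6* encodes a cytosolic sensor of bacterial flagellin, *Gbp4* an interferon-inducible guanylate-binding GTPase, and *Il4i1* a secreted L-amino acid oxidase first found as an IL-4-induced gene. The label of these genes as microglial could not be checked, because 0 of 20 microglia markers (among them *Aif1*, *Tmem119* and *P2ry12*) are in the hippocampal table, so they are called immune genes here. In bulk tissue, fewer cells of a type and less RNA per cell cannot be told apart.

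On the mouse genome build GRCm38.p6, the RefSeq annotation places *Ccl12* at chr11:82101845-82103399 on the plus strand and *Clec4n* at chr6:123229843-123247024 on the plus strand. *Adora3* lies at chr3:105904421-105908928 on the plus strand and *Naip6* at chr13:100281121-100316616 on the minus strand. *Gbp4* lies at chr5:105115767-105139586 on the minus strand and *Il4i1* at chr7:44836288-44840809 on the plus strand. RefSeq promoter sequences, 250 bases before to 50 bases after the gene start, were matched for 4 of the 6 genes. The 3 printed below, 5′ to 3′ on the strand of the gene, are those that share a motif, the PU.1 core GAGGAA. PU.1 is a transcription factor of macrophages and microglia. Capitals mark that core, read as TTCCTC where it lies on the opposite strand, the TATA box TATAAA in *Ccl12* and the AP-1 site TGANTCA in *Adora3*.
Ccl12, chr11:82101595-82101894, plus strand: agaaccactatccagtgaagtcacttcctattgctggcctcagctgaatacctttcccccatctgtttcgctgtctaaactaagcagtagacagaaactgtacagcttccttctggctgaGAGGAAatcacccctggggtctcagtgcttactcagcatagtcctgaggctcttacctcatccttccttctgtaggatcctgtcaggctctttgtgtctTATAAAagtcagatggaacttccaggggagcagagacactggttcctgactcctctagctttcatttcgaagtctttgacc
Adora3, chr3:105904171-105904470, plus strand: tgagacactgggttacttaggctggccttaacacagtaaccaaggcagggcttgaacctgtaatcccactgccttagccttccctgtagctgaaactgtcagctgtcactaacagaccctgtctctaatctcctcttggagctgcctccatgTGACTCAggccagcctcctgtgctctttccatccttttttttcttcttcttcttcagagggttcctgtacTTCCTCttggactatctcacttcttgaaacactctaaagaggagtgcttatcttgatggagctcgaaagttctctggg
Il4i1, chr7:44836038-44836337, plus strand: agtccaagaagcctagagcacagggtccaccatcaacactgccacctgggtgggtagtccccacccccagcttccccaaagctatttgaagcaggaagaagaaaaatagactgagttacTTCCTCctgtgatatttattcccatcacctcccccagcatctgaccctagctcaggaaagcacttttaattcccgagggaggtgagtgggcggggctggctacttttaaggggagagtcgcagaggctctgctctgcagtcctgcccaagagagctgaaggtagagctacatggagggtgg

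The GAGGAA core began 130 bases before the gene start in *Ccl12*, 28 bases before it in *Adora3* and 131 bases before it in *Il4i1*. The bases just after the RefSeq start were found in a GENCODE transcript of the gene for the other promoters but not for *Il4i1*, so the window and distance of *Il4i1* rest on the RefSeq start alone. It was found on either strand in 28.2% of 27025 mouse promoters of this length and in 31.5% of the 197 promoters matched for the hippocampal table, so a match of this short motif is common. The TATA box was held by 14.1% of all promoters and the AP-1 site by 7.91%. No match was found in the 4 promoters for 4 other patterns, each made of 2 short blocks around bases of any kind. These were the GAS element (TTC and GAA, 3 bases apart, 8.37% of all promoters), the STAT6 site (TTC and GAA, 4 bases apart, 7.03%), the interferon response core (GAAA and GAAA, 2 bases apart, 3.52%) and the NF-kB site (GGGA and TTCC, 2 bases apart, 1.46%). All were read on both strands, and none of the matches shown overlaps another. The *Naip6* promoter held none of the 7 motifs searched. A match is a string of letters and not evidence of binding.

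Several of these genes share sequence with neighbours. In the GENCODE annotation, 83.9% of the exonic bases of *Il4i1* (3423 of 4080) also lie in exons of *Tbc1d17* on the opposite strand. The libraries are not stated to keep strand, so reads from the 2 genes cannot be told apart there, and *Tbc1d17* was not in either table. *Adora3* shares 20.9% of its exonic bases with *Tmigd3* on the same strand. For *Naip6*, 64.4% of the transcript matches its paralogue *Naip5* at 96.9% identity, so fragments could be assigned to either gene. *Gbp4* has stretches of 5.77% to 5.93% of its transcript that match *Gbp8*, *Gbp10* and *Gbp11* at 95% identity or more, and no such match was found for *Ccl12*, *Clec4n* or *Il4i1*.

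The hippocampal table is not a whole transcriptome, since it also holds 0 of 10 hippocampal neuron markers and 0 of 8 astrocyte and oligodendrocyte markers. How its 284 genes were picked is not given in the sources used here, so shares over this table describe the table alone. Libraries Ctrl 1 and Akk 2 stood apart: 13 of 15 choroid plexus markers were in the table, all 13 were highest in Ctrl 1 and second in Akk 2. Their summed FPKM was 6949 in Ctrl 1 and 2565 in Akk 2, against 95.5 to 121 in the other 4 libraries. The pituitary hormone gene *Prl* reached 2258 FPKM in Akk 3, against 0.63 to 5.49 elsewhere. Of the other immune cell lists, border macrophage markers had 1 of 10 genes in the table, neutrophil markers 1 of 12, lymphocyte markers 0 of 12 and erythroid markers 0 of 7. The border macrophage gene *Ms4a7* measured 0.84, 0.62 and 0.10 FPKM in Ctrl 1, 2 and 3 and 0.10, 0.15 and 0.21 FPKM in Akk 1, 2 and 3, and the neutrophil gene *S100a8* ranged from 0.36 to 1.64 FPKM.

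In the hippocampus, 5 of the 6 genes had a lower mean in Akk than in Ctrl mice and *Il4i1* had a higher one. A difference below 0 was found for 59.9% of all genes in the table. The groups did not overlap for *Ccl12*, which was lower in every Akk library, and for *Il4i1*, which was higher in every Akk library. Over the table, 7.04% of genes were lower without overlap and 8.8% were higher without overlap. The other 4 genes overlapped. All differences below are Akk minus Ctrl on the log2(FPKM + 0.1) scale with the limma standard error (SE), which understates changes of genes this low, and n was 3 mice per group.

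**Figure D1:**
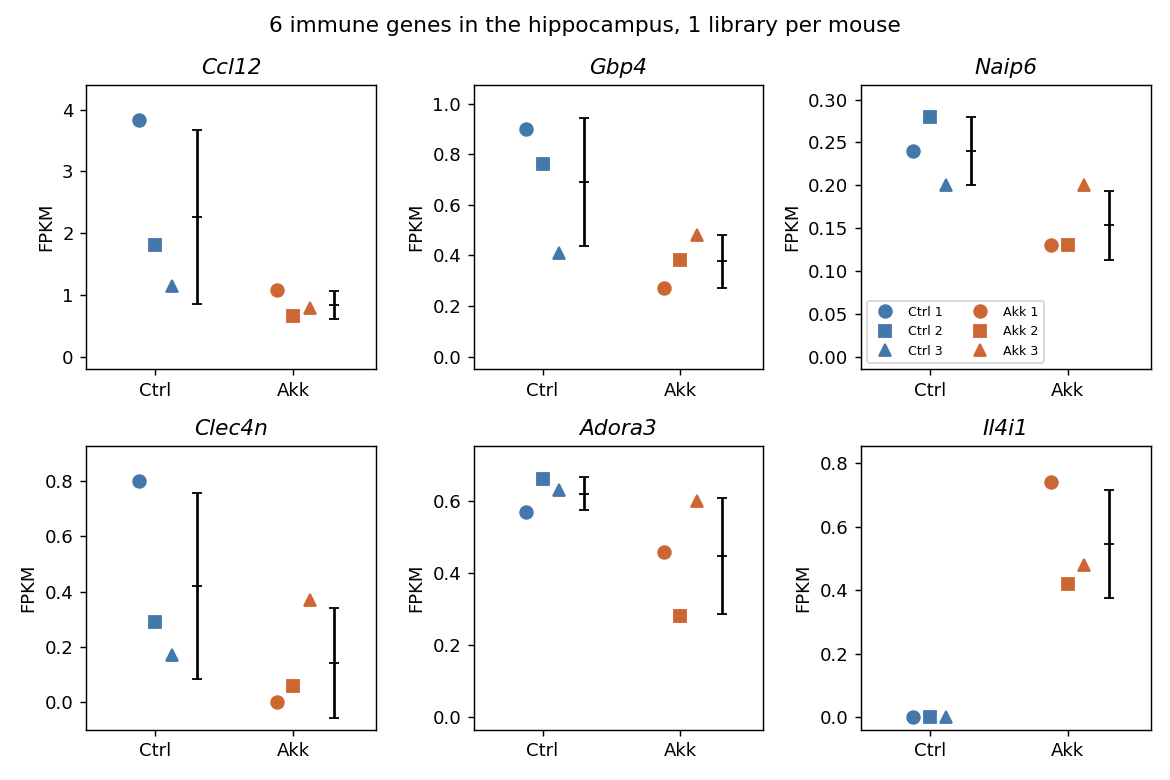
FPKM of the 6 genes in the hippocampus (vertical axes, 1 scale per gene). Each symbol is the library of 1 mouse (Ctrl blue, Akk orange), and bars give the mean ± SD of 3 mice, drawn for every group except Ctrl for *Il4i1*, which is at 0. *Ccl12* and *Il4i1* have groups that do not overlap, and the other 4 genes overlap.

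*Ccl12* measured 3.84, 1.81 and 1.14 FPKM in Ctrl 1, 2 and 3 and 1.08, 0.65 and 0.78 FPKM in Akk 1, 2 and 3. Every Ctrl library was above every Akk library, but the lowest Ctrl and the highest Akk library differed by only 0.06 FPKM, and Ctrl 1 stood far above the rest. The means were 2.26 ± 1.41 FPKM (SD, n = 3) and 0.837 ± 0.221 FPKM, a log2 difference of -1.19 (SE 0.57). Without Ctrl 1, the library with the highest choroid plexus signal, it was -0.74. Across the omission of each library in turn it ran from -1.58 to -0.74.

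*Clec4n* measured 0.80, 0.29 and 0.17 FPKM in Ctrl 1, 2 and 3, and 0, 0.06 and 0.37 FPKM in Akk 1, 2 and 3. The groups overlapped, because Akk 3 was above Ctrl 2 and Ctrl 3. The means were 0.42 ± 0.335 and 0.143 ± 0.199 FPKM (SD, n = 3), a log2 difference of -1.22 (SE 0.75), and it ran from -1.85 to -0.73 with each library left out. Its SE was the largest among the 6 genes, and 1 Akk library was listed at 0.

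*Adora3* measured 0.57, 0.66 and 0.63 FPKM in the Ctrl mice and 0.46, 0.28 and 0.60 FPKM in the Akk mice. The Ctrl libraries lay close together, and Akk 3 fell among them. The means were 0.62 ± 0.0458 and 0.447 ± 0.160 FPKM (SD, n = 3), and the log2 difference was -0.44 (SE 0.40; -0.64 to -0.20 with 1 library left out). Unlike *Ccl12* and *Clec4n*, *Adora3* was lowest among Ctrl mice in Ctrl 1.

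*Naip6* measured 0.24, 0.28 and 0.20 FPKM in the Ctrl mice and 0.13, 0.13 and 0.20 FPKM in the Akk mice. Akk 3 and Ctrl 3 were tied, and the other Akk libraries were below all Ctrl libraries. The log2 difference was -0.43 (SE 0.30), between means of 0.24 ± 0.04 and 0.153 ± 0.0404 FPKM (SD, n = 3).

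*Gbp4* measured 0.90, 0.76 and 0.41 FPKM in the Ctrl mice and 0.27, 0.38 and 0.48 FPKM in the Akk mice. Akk 3 was above Ctrl 3, while Akk 1 and Akk 2 were below every Ctrl library. The means were 0.69 ± 0.252 and 0.377 ± 0.105 FPKM (SD, n = 3), a log2 difference of -0.70 (SE 0.44; -0.98 to -0.50 with 1 library left out).

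*Il4i1* was listed at 0 in all 3 Ctrl libraries and measured 0.74, 0.42 and 0.48 FPKM in Akk 1, 2 and 3. It was the only one of the 6 genes that was higher in the Akk mice, and no fold is given against a group at 0. The mean difference was 0.547 FPKM, and 0.45 to 0.61 FPKM with 1 library left out. In the table, 4 genes (1.41%) were at 0 in all Ctrl and above 0 in all Akk libraries. Only *Il4i1* of the 6 passed a fold change of 1.5 and an adjusted p of 0.05 in limma, as did 1.06% of the table (3 genes), and it no longer passed in 11 of the 14 other settings tried, in 1 of which it was too low to be tested. That call used the same values that chose the genes and supports nothing.

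Akk 3 was the Akk library nearest to the Ctrl group for 4 of the genes. With Akk 3 left out, *Ccl12*, *Clec4n*, *Adora3*, *Naip6* and *Gbp4* were all lower in Akk without overlap, as were 10.9% of all genes in the table. Among Akk libraries, only Akk 3 reached the Ctrl range of *Clec4n*, *Adora3*, *Naip6* and *Gbp4*, so its omission had to end their overlap. All counts of this kind use the values that chose the genes and support nothing. With Ctrl 1 left out, *Ccl12* and *Adora3* were lower without overlap, against 10.2% of the table, and with both choroid-rich libraries left out the same 2 genes were, against 17.6%. With Ctrl 3 left out they were *Ccl12*, *Naip6* and *Gbp4*, against 13.7%.

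**Figure D2:**
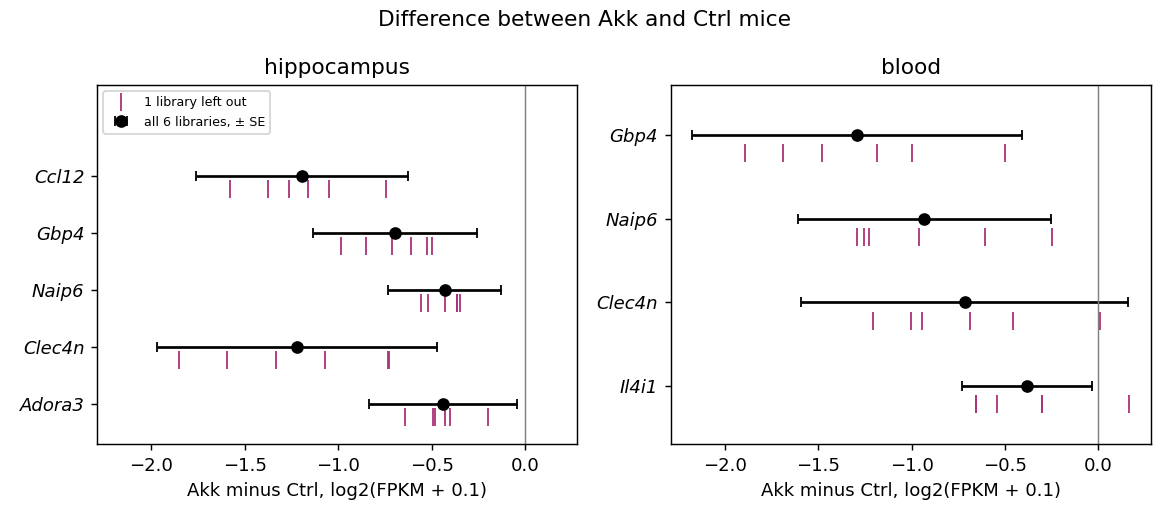
Akk minus Ctrl differences in log2(FPKM + 0.1) (horizontal axes) for 5 genes in the hippocampus and 4 in blood. Black points with bars are the limma estimate ± SE over all 6 libraries, purple ticks the estimates with 1 library left out. All hippocampal estimates drawn lie below 0, whereas in blood *Clec4n* and *Il4i1* cross 0. *Il4i1* in hippocampus and *Adora3* in blood are not drawn because a group is at 0.

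Across libraries, 3 of the 6 genes, *Ccl12*, *Gbp4* and *Clec4n*, were highest in Ctrl 1, where all 13 choroid plexus markers were highest too. *Naip6* and *Adora3* were highest in Ctrl 2, and *Il4i1* in Akk 1. In Akk 2, where all 13 choroid plexus markers took second place, none of the 6 genes was at its highest, and *Ccl12*, *Naip6* (tied with Akk 1) and *Adora3* were at their lowest. The part of choroid plexus tissue in the high Ctrl 1 values of *Ccl12*, *Gbp4* and *Clec4n* was not tested.

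**Figure D3:**
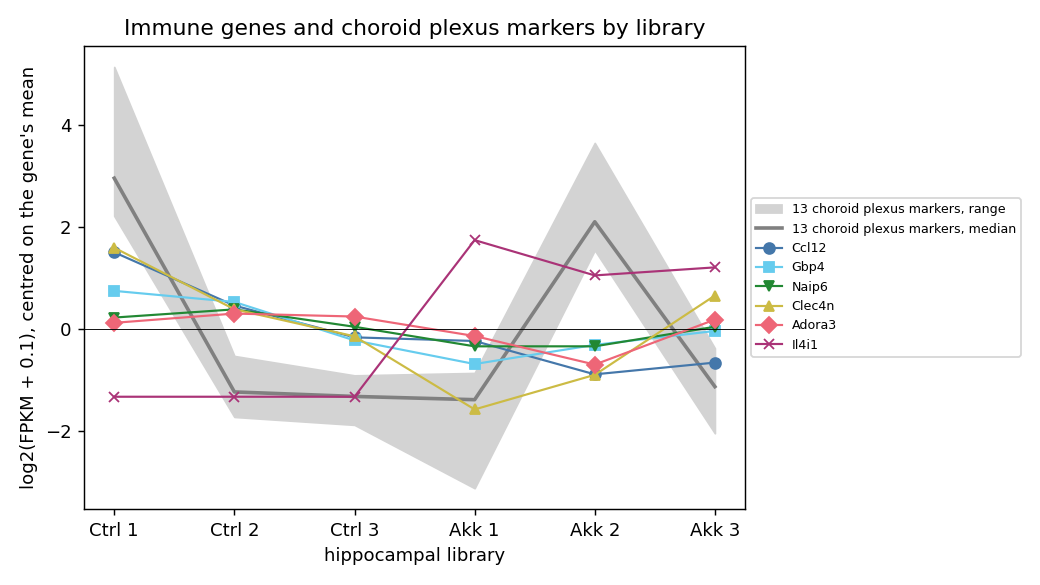
Log2(FPKM + 0.1) of each gene centred on its own mean (vertical axis) in the 6 hippocampal libraries (horizontal axis). Coloured lines are the 6 immune genes, the grey band the range and the grey line the median of 13 choroid plexus markers. The markers peak in Ctrl 1 and Akk 2, and of the 6 genes 3 peak in Ctrl 1 and none in Akk 2.

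By mean hippocampal level over the 6 libraries, *Ccl12* came first at 1.55 FPKM, which placed it 50th of 284 genes. *Gbp4* and *Adora3* followed at 0.533 FPKM each, then *Clec4n* at 0.282, *Il4i1* at 0.273 and *Naip6* at 0.197 FPKM, beside a table median of 0.356 FPKM. *Ccl12* exceeded each of the others in 6 of 6 libraries, although its range was apart only from that of *Naip6*. No neighbours in this order had ranges that were apart. *Gbp4* was above *Adora3* in 3 libraries, *Clec4n* above *Il4i1* in the 3 Ctrl libraries alone, and *Il4i1* above *Naip6* in the 3 Akk libraries alone.

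The genes most alike in pattern were sought as those with the smallest root mean square difference between centred log2(FPKM + 0.1) values over the 6 libraries. For *Ccl12* they were *Steap4* (0.31), *Tlr12* (0.38) and *Aurkb* (0.39), beside a median of 1.00 over the other 283 genes. For *Clec4n* they were *H2-Ab1* (0.47), an MHC class II chain, *Mgarp* (0.61) and *Ms4a7* (0.62), beside a median of 1.14. *Adora3* was nearest to *Evi2b* (0.16), *Gata5* (0.18) and *Naip6* (0.20), and *Naip6* to *Gata5* (0.08), *Nr5a2* (0.11) and *Obp2b* (0.17). *Gbp4* was nearest to *Gm15433* (0.18), *Gm15816* (0.28) and *Naip6* (0.29), and *Il4i1* to *Gm26650* (0.50) and *Ecel1* (0.54). These distances rest on 6 libraries and favour genes with a small spread, such as *Naip6*.

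Few relatives of these genes were in the hippocampal table. Of 21 interferon-inducible GTPases, 4 were present, *Gbp4* among them, and none passed the limma test. *Tgtp2* was under an unadjusted limma p of 0.05, as were 32 of the 284 genes in the table. *Tgtp2* measured 1.46, 0.35 and 0.53 FPKM in the Ctrl mice and 0.35, 0 and 0 FPKM in the Akk mice, its near copy *Tgtp1* 6.12, 0.97 and 0 against 0, 1.17 and 0.65 FPKM, and *Gvin1* 0.86, 0.40 and 0.45 against 0.85, 0.49 and 0.49 FPKM. All 3 overlapped between the groups. From 23 NAIP and inflammasome genes, *Naip6* was joined only by the inflammatory caspase *Casp4*, at 0.24, 0.19 and 0.06 FPKM in Ctrl and 0.25, 0.12 and 0.18 FPKM in Akk mice. *Ccl12* was the only one of 30 listed chemokine axis genes, *Clec4n* of 19 C-type lectin receptor genes, *Adora3* of 18 adenosine signalling genes and *Il4i1* of 18 amino acid catabolism genes. These lists left out 2 genes of the closing section. The chemokine gene *Ccl27b* measured 1.05, 3.20 and 2.88 FPKM in Ctrl and 0.80, 3.40 and 2.65 FPKM in Akk mice. The C-type lectin gene *Mgl2* measured 0.60, 0.76 and 0.41 against 0.42, 0.30 and 0.36 FPKM, and both overlapped.

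In the blood of the same mice, the means of all 5 genes with an entry were lower among Akk mice, though *Clec4n* and *Il4i1* turned to 0.20 and 0.53 on the log2 scale once each library was centred on its median. A difference below 0 was found for 99.5% of the blood table, whose median was -0.87 before and 0.045 after this centring. The genes of that table may have been chosen on this same contrast. None of the 5 passed the limma test and 1 had an unadjusted p under 0.05, the groups of all 5 overlapped, and each gene was highest in Ctrl 1. That library was the highest for 98.2% of the 8003 blood genes, and its summed FPKM was 70846 against 10311 to 19551 in the others. Over the table, 0% of genes passed in limma (276 had an unadjusted p under 0.05), and 15.4% were lower without overlap.

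*Gbp4* measured 1.76, 0.38 and 0.17 FPKM in the blood of Ctrl 1, 2 and 3 and 0.34, 0.12 and 0.07 FPKM in that of Akk 1, 2 and 3. Its log2 difference in limma was -1.29 (SE 0.88, adjusted p = 0.487), and *Gbp4* was -0.50 with Ctrl 1 left out. Ctrl 1 alone was well above the Akk range.

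*Naip6* in blood measured 0.75, 0.11 and 0.10 FPKM in Ctrl and 0.16, 0.01 and 0.08 FPKM in Akk mice, a log2 difference in limma of -0.93 (SE 0.68, adjusted p = 0.487). *Clec4n* measured 1.25, 0.26 and 0.15 FPKM in Ctrl and 0.19, 0.11 and 0.35 FPKM in Akk mice, a difference of -0.72 (SE 0.88, limma adjusted p = 0.493). Without Ctrl 1 the differences were -0.25 for *Naip6* and 0.0072 for *Clec4n*, so these rested on that library.

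*Adora3* in blood measured 0.20, 0.04 and 0 FPKM in Ctrl 1, 2 and 3, and all 3 Akk mice were at 0. It had an unadjusted limma p of 0.0469 and an adjusted p of 0.487, and it was the only one of the 5 under 0.05 before adjustment. That p rests on an SE of 0.35 set by the trend over genes, and not on its own within-group SD of 0.57. *Il4i1* in blood measured 0.21, 0 and 0 FPKM in Ctrl and 0, 0 and 0.04 FPKM in Akk mice, with a log2 difference of -0.38 (SE 0.35, limma adjusted p = 0.487) that was 0.16 without Ctrl 1. *Il4i1* was at 0.04 FPKM or less in 5 of 6 blood libraries, those of the 3 Akk mice included.

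**Figure D4:**
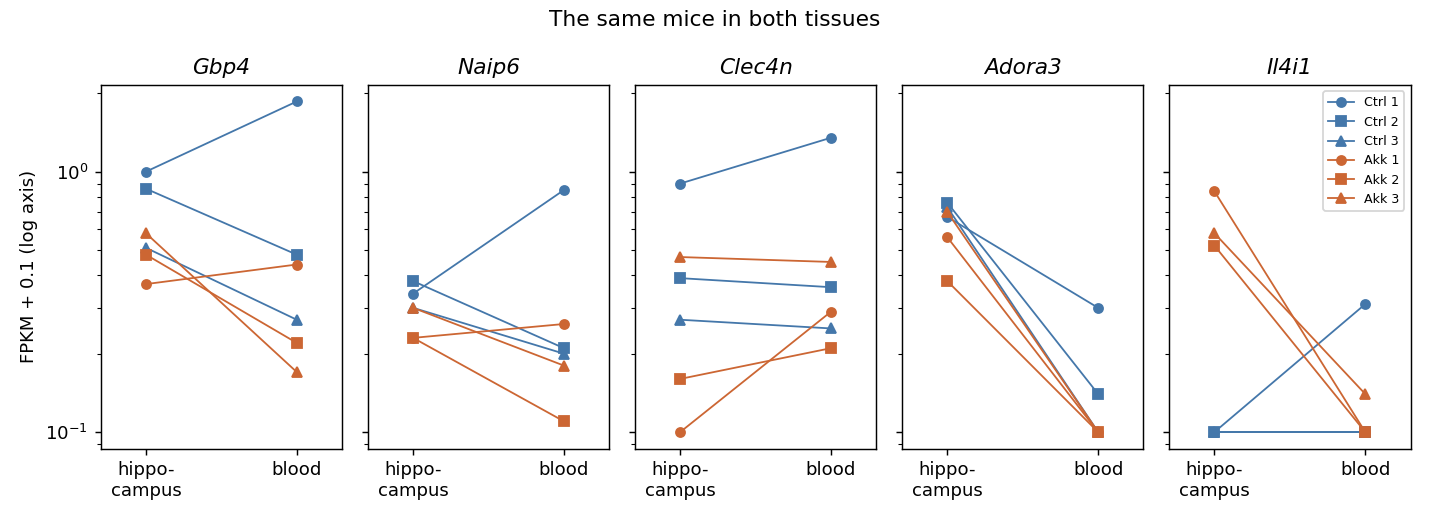
FPKM + 0.1 (log axis) of the 5 genes present in both tables, with a line for each of the 6 mice from hippocampus to blood (Ctrl blue, Akk orange). *Adora3* falls in all 6 mice, and *Il4i1* falls in the 3 Akk mice. The tables may have been normalized separately, so the levels are shown side by side without a test.

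Set side by side, *Adora3* was higher in hippocampus than in blood in 6 of 6 mice, with mean levels of 0.533 and 0.04 FPKM. *Il4i1* was higher in hippocampus in the 3 Akk mice and in no Ctrl mouse. *Gbp4* and *Naip6* were higher in hippocampus in 4 of 6 mice each, and *Clec4n* in 3 of 6. The ratio of mean hippocampal to mean blood FPKM was 13.3 for *Adora3*, 6.56 for *Il4i1*, 1.13 for *Gbp4*, 0.975 for *Naip6* and 0.732 for *Clec4n*. Without mouse Ctrl 1 it was 2.13 for *Gbp4*, 2.04 for *Naip6* and 0.84 for *Clec4n*. For *Adora3* and *Il4i1*, 4 of the 5 remaining blood libraries were at 0 and 1 was at 0.04 FPKM, too low to give a ratio a meaning. The ratios of 13.3 and 6.56 thus rest on blood levels near 0. No test was made between the tissues.

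The pathways of these genes were better covered in blood, where 0 of 85 entries in the 6 lists passed the limma test and 14 had an unadjusted p under 0.05, 10 of them among the interferon-inducible GTPases. Counts there are set against the 15.4% of the blood table that was lower without overlap and a table median log2 difference of -0.87. They thus compare genes within a table that was mostly lower already. Of the 18 genes present from the interferon-inducible GTPase list (of 21 listed), 8 (44.4%) were lower without overlap, with a median difference of -1.77. Markers of blood leukocytes moved with this list: 5 of 6 lymphocyte markers present (83.3%, median -1.24) and 5 of 10 neutrophil markers (50%, median -1.65) were lower without overlap, and their part in the result was not tested. Summed neutrophil markers ranged from 287 to 1340 FPKM in Ctrl and from 137 to 368 FPKM in Akk mice, and summed lymphocyte markers from 9.81 to 34.9 and from 5.10 to 11.3 FPKM, with no marker of either list at 0. Of the macrophage lists, 1 of 12 microglia markers (8.33%, median -1.28) and 2 of 6 border macrophage markers (33.3%, median -0.97) were lower without overlap in blood. *Igtp* measured 70.3, 15.2 and 9.32 FPKM in Ctrl and 5.32, 6.63 and 5.25 FPKM in Akk mice. *Tgtp2* measured 10.3, 7.46 and 4.38 against 1.23, 1.72 and 1.55 FPKM, and *Gbp7* 4.91, 1.35 and 0.84 against 0.30, 0.47 and 0.44 FPKM. In these 3 genes every Ctrl library was above every Akk library, unlike in *Gbp4*.

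Of 14 chemokine axis genes present (of 30 listed), 4 (28.6%) were lower without overlap, with a median of -1.31. *Ccr2*, the receptor of the *Ccl12* product, measured 11.3, 1.53 and 0.58 FPKM in Ctrl and 0.88, 0.26 and 0.84 FPKM in Akk mice and overlapped. Of 18 NAIP and inflammasome genes (of 23), 4 (22.2%) were lower without overlap, with a median of -1.16, and *Naip5* measured 1.47, 0.26 and 0.12 FPKM in Ctrl and 0.39, 0.15 and 0.27 FPKM in Akk mice.

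Of 17 C-type lectin receptor genes (of 19), 0 (0%) were without overlap, with a median of -1.17. *Clec4d*, a relative of *Clec4n*, measured 25.1, 4.28 and 2.25 FPKM in Ctrl and 4.29, 4.80 and 3.95 FPKM in Akk mice, and *Clec7a*, which encodes Dectin-1, measured 44.2, 5.43 and 2.73 against 3.80, 3.23 and 4.54 FPKM. In both, Ctrl 1 alone was far above the Akk mice. Of 11 adenosine signalling genes (of 18), 2 (18.2%) were lower without overlap, with a median of -1.09, and of 7 amino acid catabolism genes (of 18), 1 (14.3%) was, with a median of -0.71. Each list includes the gene described here, except that *Ccl12* was not analysed in blood.

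These medians moved with Ctrl 1 and with the scaling. Without Ctrl 1 the table median was -0.24, and the lists had medians of -0.93 for the interferon-inducible GTPases, -0.38 for the chemokine axis, -0.23 for NAIP and inflammasome genes, -0.25 for C-type lectin receptor genes, -0.25 for adenosine signalling and 0.25 for amino acid catabolism, the last with its direction turned. The neutrophil and lymphocyte markers then had medians of -0.94 and -0.86. With each library centred, the medians of the 6 lists in the same order were -0.86, -0.40, -0.25, -0.25, -0.18 and 0.21, beside 0.045 for the table, and those of neutrophil and lymphocyte markers were -0.74 and -0.33. After centring, 4.44% of the table was lower without overlap, against 5 of 18 interferon-inducible GTPases (27.8%), 2 of 14 chemokine axis genes (14.3%), 2 of 18 NAIP and inflammasome genes (11.1%), 1 of 11 adenosine signalling genes (9.09%) and 0 genes of the other 2 lists. Of the leukocyte markers, 1 of 10 neutrophil markers (10%) and 1 of 6 lymphocyte markers (16.7%) were still lower without overlap after centring.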

How the data were processed

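Total RNA from blood and hippocampus of the same 6 mice was extracted with Trizol, poly(A)-selected and sequenced on a BGISEQ-500. The authors deposited FPKM per gene and library, 1 table per tissue, with no counts. The study's methods name HISAT2/Bowtie2 for mapping and RSEM for expression, whereas the submitters' processing notes name TopHat2, Cufflinks and GRCm38. How the table genes were picked is not stated in the sources used here. The blood table holds 8003 genes, the number that the study reported as differentially expressed in blood, most of them downregulated. It may thus be a list chosen on the same contrast of Akk against Ctrl mice. Depth and precision per library are unknown.

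The 6 genes and the gene lists were chosen with earlier results of these data known. Each table was fitted whole with limma 3.58.1 (R 4.3.3) on log2(FPKM + 0.1), with group as the only term, an intensity trend and Benjamini-Hochberg adjustment over the table, after the procedure had been tested on simulated data. A gene was called at a fold change of 1.5 and an adjusted p of 0.05, the study's thresholds. Groups without overlap are those in which all values of one lie above all of the other. P-values rest on the spread between 3 mice per group, which limma draws toward the trend over genes of like level. In blood the SE followed that trend and hardly the gene's own spread. *Tgtp2* and *Ccr2* had SEs of 0.93 and 0.92 there, with within-group SDs of 0.47 and 1.58 on the log2 scale. Genes named are the 6, members of 6 pathway and 9 cell type lists in the hippocampal table, close relatives, receptors and ligands of the 6 in blood, and the 3 genes nearest in pattern to each, less a few items that are not reported here. *Prl* was named after its values were seen, and so were the 26 immune genes of the closing section, which were picked by symbol.

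Alternatives covered the pseudocount, a level filter, centring, quantile normalization, no trend, a replicate block and omission of libraries. Of these, omitting Ctrl 1 and Akk 2 together, and centring without Ctrl 1, were chosen after seeing the data. Same-numbered Ctrl and Akk mice are different animals. Near-identical transcripts (at least 95% identity over 100 bases) were found with blastn 2.17.0. Promoters and positions came from RefSeq on GRCm38.p6, and tables and figures were made with Python 3.11.15, pandas 2.3.3, numpy 2.4.6 and matplotlib 3.10.9. The promoters of *Gbp4* and *Clec4n* were not analysed here.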

Additional observations from a re-analysis of the deposited data

How the results depend on the processing

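The fitted hippocampal differences of *Gbp4*, *Naip6*, *Clec4n* and *Adora3* stayed below 0 in every setting in which they could be fitted. For *Ccl12* and *Il4i1*, whose groups do not overlap, leaving out a library could not turn the direction. Their size moved with the pseudocount: *Naip6* was -0.10 with 1 and -0.63 with 0.01, and *Clec4n* was -2.45 with 0.01. A mean FPKM of at least 1 kept only *Ccl12* of the 6 genes.

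The number of hippocampal genes called, 3, became 1 with a pseudocount of 1, the level filter, centring, quantile normalization or without Ctrl 1 and Akk 2, became 5 with a pseudocount of 0.01, and ran from 1 to 4 with 1 library left out. Of the 6 genes, 1 (*Il4i1*) was called, and 0 with a pseudocount of 1, the level filter, centring, quantile normalization or without Ctrl 1 and Akk 2, and 0 to 1 with 1 library left out, the 1 being without Akk 1. Genes of the 6 lower without overlap numbered 1, became 2 after centring or without Ctrl 1 and Akk 2, and ran from 1 to 5 with 1 library left out.

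With a replicate block, 0 hippocampal genes, 0 of the 6 genes in hippocampus and 1 blood gene were called. The numbers do not pair the mice: same-number correlations were -0.284, -0.325 and 0.140 in hippocampus and 0.036, -0.011 and -0.096 in blood. In neither tissue did any mouse correlate best with its own number.

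In blood, 0 genes were called, against 4 with a pseudocount of 0.01, 1 after centring, 2 after centring without Ctrl 1, and 0 to 23 with 1 library left out (23 without Ctrl 3). *Clec4n* was 0.20 after centring, 0.20 after quantile normalization and 0.26 after centring without Ctrl 1, and ran from -1.21 to 0.0072 with 1 library left out. *Il4i1* was 0.53, 0.17 and 0.41 in the same 3 settings, and -0.65 to 0.16 with 1 left out. *Naip6* was 0.0030 after centring without Ctrl 1. None of the 5 genes was lower without overlap, and 0 to 2 were with 1 library left out (*Gbp4* and *Adora3* without Ctrl 3, *Gbp4* and *Naip6* without Akk 1, when 57.8% and 41.8% of the table were). The cause was not tested.

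Ratios of hippocampal to blood level ran, with 1 mouse left out, from 0.982 to 2.13 for *Gbp4* (0.992 without Ctrl 2, 0.982 without Akk 3), 0.818 to 2.04 for *Naip6*, 10.7 to 65.8 for *Adora3* and 3.60 to 41.0 for *Il4i1*. The upper values of the last 2 divide by a blood mean of 0.008 FPKM, set by 1 library, and are no measure of size. The median ratio of FPKM + 0.1 per mouse was 1.84 for *Gbp4*, 1.58 for *Naip6*, 0.892 for *Clec4n*, 5.51 for *Adora3* and 2.04 for *Il4i1*. With FPKM alone and no depth, the low values carry an unknown counting error.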

Other observations

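Beside the 6 genes, 26 other immune genes were found by symbol in the hippocampal table, and no test was made of them as a group. They were picked with their values already seen, so the shares below describe them and support nothing. The 26 leave out list genes given above. Among those, *Casp4* and *Gvin1* had differences above 0, and *Tgtp1*, *Tgtp2*, *Ms4a7* and *S100a8* below 0. Of the 26, 22 had a log2 difference below 0 and 4 above 0, against 59.9% of the table below 0. Their median was -0.43 beside -0.11 for the table. In limma 0 of them were called, where 1.06% of the table was. Under an unadjusted limma p of 0.05 were 2 (*Gimap3* and *Klhl6*), as were 32 of the 284 genes in the table. Lower without overlap were 4 (15.4%), against 7.04% of the table: *Gimap3*, an immune-associated GTPase of lymphocytes, *Klhl6*, *Arhgap9* and *Evi2b*, a membrane protein of leukocytes. *Gimap3* measured 0.22, 0.38 and 0.46 FPKM in Ctrl 1, 2 and 3 and 0.11, 0.13 and 0.11 FPKM in Akk 1, 2 and 3. *Klhl6* measured 0.70, 0.97 and 1.05 FPKM in Ctrl and 0.28, 0.44 and 0.46 FPKM in Akk mice. In both, Ctrl 1 was the lowest Ctrl library, unlike for *Ccl12*. Without Ctrl 1, 16 of the 26 were below 0, with a median of -0.42 beside 0.33 for the table, and 8 (30.8%) were lower without overlap, against 10.2% of the table.

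Genes that activated or antigen-presenting microglia and macrophages can express were among them, though the cells they came from were not determined here. *Cst7*, a cystatin that activated microglia can express, measured 0.29, 0.88 and 0.87 FPKM in Ctrl and 0.14, 0.48 and 0.34 FPKM in Akk mice. Its groups overlapped through Ctrl 1 alone. *H2-Ab1*, the gene most like *Clec4n* in pattern, measured 2.55, 2.35 and 0.66 FPKM in Ctrl and 0.47, 0.78 and 1.56 FPKM in Akk mice and overlapped. The T cell genes *Cd6* and *Cd7* were among the 4 with a difference above 0, and their groups overlapped as well.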
